A study of Rattus norvegicus with 6 samples.

Results

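Nfat5 and 4 genes that move or make organic osmolytes were followed in the established rat fibroblast line Rat-1 after seeding on extracellular matrix. The members were set by symbol: Nfat5, the taurine transporter gene Slc6a6, the amino acid transporter gene Slc38a2, the myo-inositol transporter gene Slc5a3 and the aldose reductase gene Akr1b1. All 5 have a row among the 17143 genes of the table, and all 5 are among the 7284 genes that were tested, each reaching 5 or more in 2 or more libraries. Nfat5, Slc6a6 and Slc38a2 were chosen by the log2 folds and adjusted p-values of earlier fits of these same data, Nfat5 and Slc38a2 on MMP13 matrix and Slc6a6 on MMP1 matrix. Their values in those comparisons are therefore a description and support nothing. Their folds on the other remodelled matrix use the same native libraries, so they are not independent of that choice. Slc5a3 and Akr1b1 were added as textbook targets of the NFAT5 protein.

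Cells were seeded at 25000 per well and lysed on the matrix after 4 h, and RNA was read by 3' end sequencing. The labels give the matrix as the difference between the groups. It was left native (2 libraries), remodelled by matrix metalloproteinase 1 (MMP1, 2 libraries) or remodelled by matrix metalloproteinase 13 (MMP13, 2 libraries). Both enzymes are secreted collagenases. Below, the treated kinds are called MMP1 matrix and MMP13 matrix. The labels describe duplicates without saying that they were separate cultures, so the p-values cover only variation among these 6 libraries, and that may be technical.

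NFAT5, also called TonEBP, is a transcription factor of the Rel family. When a cell loses water to hypertonic surroundings, NFAT5 enters the nucleus and raises genes that bring in or make small organic osmolytes, so that the cell regains volume without raising its salt. SLC6A6 imports taurine, SLC5A3 imports myo-inositol, AKR1B1 reduces glucose to sorbitol, and SLC38A2 (system A) imports small neutral amino acids. Slc38a2 and other transporter genes also answer to amino acid supply through the factor ATF4. The labels describe no change in the tonicity of the medium.

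Levels are given in units, 1 unit being 1 read after the deposited scaling by library size factor. The libraries held between 161817 and 362122 reads, and a gene with 0 reads could still lie at up to 2.21 units (3 reads) in the deepest and 5.04 units in the shallowest. With so few reads per library, the lower members rest on counts of 1 to 29 reads. All 8 fibroblast markers were read in these libraries and summed to between 5688 and 6293 units. None of the 7 marker lists of other cell types took more than 0.0181% of the reads of any library. The ribosomal RNA entry Rn45s took 0.293% and 0.347% of reads on native matrix, 0.661% and 0.936% on MMP1 and 0.692% and 0.968% on MMP13 matrix. Its part in the results below was not tested.

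Nfat5 was lowest on MMP13 matrix. Its level was 48.6 and 58.9 units in the native libraries, 55.5 and 22.8 on MMP1 matrix, and 31.6 and 10.1 on MMP13 matrix. Both MMP13 libraries lay below both native libraries, as in 18.6% of tested genes, while 1 MMP1 library lay within the native range and the other below it. Group means were 53.7 ± 7.2, 39.2 ± 23.1 and 20.8 ± 15.2 units (SD, n = 2 each). The order of the means was thus native, MMP1, MMP13, but neither neighbouring pair was separated beyond its spread.

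The lowest Nfat5 value, in MMP13 replicate 2, came from 6 reads, with an exact Poisson 95% interval of 3.70 to 21.9 units for counting error alone. That library is also the shallowest of the 6. The other 5 libraries held between 19 and 78 Nfat5 reads. On the log2(value + 1) scale, on which all folds are given and which understates changes of low genes, Nfat5 had a fold of -1.52 (SE 0.39) on MMP13 against native matrix. The limma adjusted p of 0.036 is the value for which Nfat5 was chosen. Without MMP13 replicate 2 the log2 fold was -0.74 (adjusted p = 0.998), and without MMP13 replicate 1 it was -2.30 (adjusted p = 0.0016).

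The replicates of Nfat5 scattered more than those of most genes. Its own residual SD over the 6 libraries was 0.82 on the log2 scale, against 0.39 that the trend assigned to a gene of its level, and 99.3% of tested genes had a smaller ratio of the 2. In this fit every gene took its spread wholly from the trend, so the error of Nfat5 may be too small. Without the trend its adjusted p was 0.83. By edgeR on recovered reads the log2 fold was -1.20 (adjusted p = 0.103). On MMP1 matrix Nfat5 had a log2 fold of -0.57 (95% interval -1.34 to 0.20, adjusted p = 0.74), and the sign turned without MMP1 replicate 2 (0.052).

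**Figure D1:**
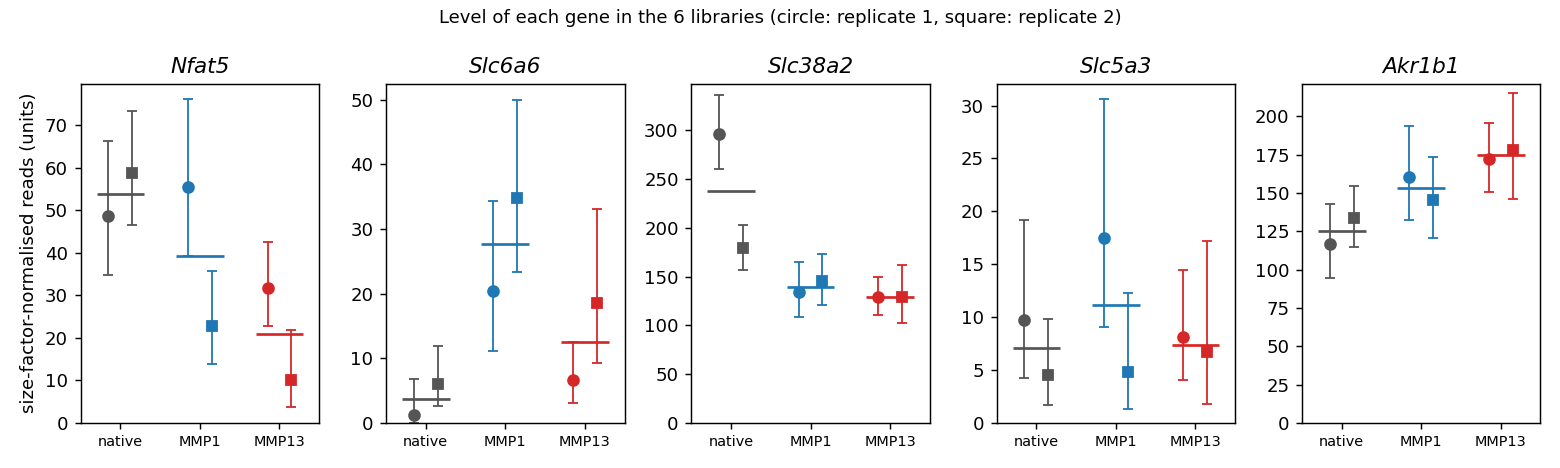
Level of the 5 genes in each library, in size-factor-normalised reads (vertical axes start at 0). Circles are replicate 1 and squares replicate 2, horizontal lines are group means, and bars are exact Poisson 95% intervals for counting error. Nfat5 ranges from 10.1 to 58.9 units, Slc38a2 is highest in native replicate 1, and the 4 Akr1b1 values on remodelled matrices lie above both native values.

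The closest neighbour of Nfat5 to its right in RefSeq's GRCr8 annotation is Nqo1, a quinone reductase gene with which its model does not overlap. Nqo1 lay between 215 and 282 units in all 6 libraries. Among the marker lists of other cell types, the tenocyte list followed the order of Nfat5, while the epithelial list was highest on MMP13 matrix. Of the 3 tenocyte markers Scx, at 21.8 to 47.5 units, and Tnmd, at 0 to 5.84 units, were read. Their sum was 45.0 to 47.5 units on native matrix, 38.4 to 42.4 on MMP1 and 23.5 to 36.8 on MMP13 matrix. The part of the tenocyte list in the Nfat5 values was not tested.

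Slc6a6 was higher on both remodelled matrices, with the highest values on MMP1 matrix. Its level was 1.22 and 6.04 units on native matrix, 20.4 and 34.8 on MMP1 and 6.62 and 18.5 on MMP13 matrix. The MMP1 libraries lay above both native ones, as in 19.6% of tested genes, and so did the MMP13 libraries, as in 18.9%. These values came from 1 and 8, 14 and 29, and 9 and 11 reads, so the native library with 1 read lies under the 3.65 units that 3 reads make there. The exact Poisson intervals of native replicate 2 (2.61 to 11.9 units) and MMP13 replicate 1 (3.03 to 12.6 units) overlap over most of their length.

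On MMP1 against native matrix Slc6a6 had a log2 fold of 2.81 (SE 0.66), and the limma adjusted p of 0.015 is the value for which it was chosen. That call was lost without native replicate 1 (log2 fold 1.98, adjusted p = 0.998), without MMP1 replicate 1 (3.18, adjusted p = 0.069) and without MMP1 replicate 2 (2.44, adjusted p = 0.34). By edgeR it held (2.75, adjusted p = 0.034), and by DESeq2 the adjusted p was 1. The residual SD of Slc6a6 itself, 0.93, was above the 0.66 of the trend, so its error may be too small as well. By limma without the trend the call was lost (adjusted p = 0.66). On MMP13 matrix the log2 fold was 1.63 (95% interval 0.33 to 2.92), which did not pass (adjusted p = 0.43), and it was 0.79 without native replicate 1. The leukocyte list was also lowest on native matrix, at 11.3 to 18.2 units summed over its 6 markers, against 27.6 to 29.2 on MMP1 and 20.2 to 20.6 on MMP13 matrix. Csf1r carried 6.79 to 24.0 units of this, while the pan-leukocyte marker Ptprc had at most 4 reads and the T cell marker Cd3e at most 2. The part of this list in the Slc6a6 values was not tested.

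The sequence just before the Slc6a6 start is shown because it holds a match to the tonicity-responsive enhancer, the element that NFAT5 binds. Promoter windows of 250 bases before the annotated start were taken from RefSeq (GRCr8), which gave a window for 3 of the 5 members. The element was searched as its published consensus, by name, and as its core TGGAAA, on both strands, the core being part of the consensus. In the Slc6a6 window, chr4:125752252-125752501 on the plus strand, 1 consensus match lies on the minus strand, 161 to 151 bases before the start. It is in capitals below and reads TGGAAAAATAC on its own strand.
Slc6a6: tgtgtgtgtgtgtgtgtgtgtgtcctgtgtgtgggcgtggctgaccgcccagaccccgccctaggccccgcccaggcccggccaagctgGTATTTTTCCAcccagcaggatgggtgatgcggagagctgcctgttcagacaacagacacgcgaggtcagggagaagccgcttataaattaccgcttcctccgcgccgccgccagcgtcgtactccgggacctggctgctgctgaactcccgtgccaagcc
The Slc38a2 window, chr7:129742620-129742869 on the minus strand, is shown beside it as that of the other transporter gene among the chosen members, and holds neither the core nor the consensus.
Slc38a2: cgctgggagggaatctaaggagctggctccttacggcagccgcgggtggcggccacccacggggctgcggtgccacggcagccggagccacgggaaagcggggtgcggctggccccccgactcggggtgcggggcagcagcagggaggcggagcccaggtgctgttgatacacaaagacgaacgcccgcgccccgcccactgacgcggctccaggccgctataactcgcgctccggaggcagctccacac
The Slc5a3 window held neither as well. Of all 33469 windows in the table, 19.7% hold the core and 5.17% the consensus, and of the 5837 windows of tested genes 14.4% and 2.86% do. In the list of NFAT5 target and osmolyte genes, 15 of 19 genes had a window, 3 held the core and 1, Slc6a6, the consensus. A gene with several windows was counted if any of them held the match, whereas the percentages above are per window. A match is a description of letters and no evidence of binding, and a window without one says nothing about elements elsewhere.

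Slc38a2 was lower on both remodelled matrices. Its level was 297 and 179 units on native matrix, 134 and 145 on MMP1 and 129.4 and 129.3 on MMP13 matrix, from between 77 and 244 reads. The MMP1 libraries lay below both native ones, as in 18.8% of tested genes, as did the MMP13 libraries, and the native pair was itself the widest of the 3 pairs. Group means were 238 ± 83.3, 140 ± 7.7 and 129 ± 0.095 units (SD, n = 2 each). The MMP1 and MMP13 levels differed by a log2 fold of -0.11 (95% interval -0.51 to 0.29, adjusted p = 1).

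Against native matrix Slc38a2 had a log2 fold of -0.83 (SE 0.21) on MMP13 matrix, and the limma adjusted p of 0.025 is the value for which it was chosen. The log2 fold was -0.46 without native replicate 1 (adjusted p = 0.999) and -1.19 without native replicate 2 (adjusted p = 0.012). On MMP1 matrix it was -0.72 (95% interval -1.12 to -0.32), which did not pass (adjusted p = 0.13), and was -0.35 without native replicate 1. Without native replicate 2 it was -1.08 and passed (adjusted p = 0.047). EdgeR called the MMP13 difference (-0.85, adjusted p = 0.0090) and so did DESeq2 (-0.87, adjusted p = 0.032). The residual SD of Slc38a2 itself, 0.30, was above the 0.21 of the trend, so its limma error may be too small. Without the trend the limma call was lost.

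Akr1b1 was not chosen for its values, and its replicates lay close together. It lay at 117 and 134 units on native matrix, 161 and 145 on MMP1 and 172 and 178 on MMP13 matrix, from between 96 and 234 reads. All 4 libraries from remodelled matrices lay above both native libraries, in the order native, MMP1, MMP13. Both MMP13 libraries were above both MMP1 libraries, as in 15.9% of tested genes. Group means were 125 ± 11.9, 153 ± 10.9 and 175 ± 4.2 units (SD, n = 2 each). The differences did not pass. MMP1 matrix gave a log2 fold of 0.29 (95% interval -0.12 to 0.70, adjusted p = 0.76) and MMP13 matrix one of 0.48 (0.070 to 0.90, adjusted p = 0.49), with adjusted p from 0.32 to 0.999 over the alternatives of the latter. Leaving out any 1 library kept both above 0, at 0.19 to 0.39 and 0.39 to 0.58. Its own residual SD, 0.10, was below the 0.21 of the trend. RefSeq lists 5 pseudogenes named for Akr1b1 in GRCr8, and how reads shared with them were counted is not given in the sources used here.

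Slc5a3 was too low to place. It lay at 9.72 and 4.53 units on native matrix, 17.5 and 4.80 on MMP1 and 8.09 and 6.72 on MMP13 matrix, from between 4 and 12 reads, and the libraries of all groups overlapped. MMP1 matrix gave a log2 fold of 0.43 (95% interval -1.03 to 1.89) and MMP13 matrix one of 0.12 (-1.34 to 1.58), with adjusted p of 0.93 and 0.98. Either sign appeared when 1 library was left out. Changes up to the ends of these intervals are not excluded by the values. In GRCr8 the Slc5a3 model lies inside the span of Mrps6, a mitochondrial ribosomal protein gene not analysed here, and reads of the 2 could be hard to assign.

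Counted together, 1 of 5 members passed on MMP1 matrix, Slc6a6, which was higher, where 0.137% of tested genes passed as higher, 0.0137% as lower and 0.151% in either direction. On MMP13 matrix 2 of 5 passed, Nfat5 and Slc38a2, both lower, where 0.137% of tested genes passed as lower, 0.275% as higher and 0.412% in either direction. Since these calls chose the members, nothing is read from either share. Between MMP13 and MMP1, 0 of 5 passed by limma or DESeq2 and 0 of the 4 tested by edgeR, where limma called 0.0412% of tested genes in either direction. At an unadjusted p under 0.05, where 5.22% of tested genes stood, that comparison held 1 member, Nfat5 (log2 fold -0.95, 95% interval -1.72 to -0.18, adjusted p = 0.82). The Slc6a6 fold between them was -1.19 (-2.48 to 0.11, adjusted p = 0.99), so a difference between the 2 remodelled matrices was not shown for any member. That comparison shares its libraries with the other 2.

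Slc6a6 and Akr1b1 had all 4 remodelled libraries above both native ones, as did 8.91% of tested genes, and Slc38a2 had all 4 below, as did 8.7%. Slc6a6 and Slc38a2 were chosen from comparisons that hold these same native libraries, so nothing is read from their patterns. With 2 libraries against 2, an exact permutation test over samples cannot give a two-sided p under 0.333.

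**Figure D2:**
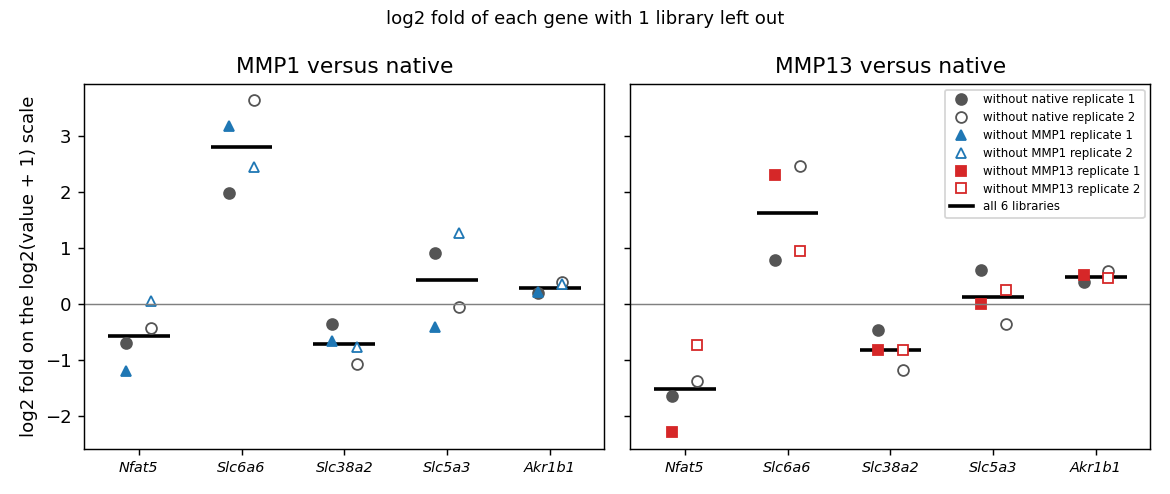
Log2 fold of each gene against native matrix on the log2(value + 1) scale. Black bars use all 6 libraries, and each symbol leaves out 1 library of the compared groups. Nfat5 moves from -2.30 to -0.74 on MMP13 matrix and Slc6a6 from 1.98 to 3.64 on MMP1 matrix, while Akr1b1 stays between 0.19 and 0.58 in both panels.

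Whether NFAT5 targets moved with Nfat5 was asked over the libraries. Slc6a6 was lowest in the native libraries, where Nfat5 was at 48.6 and 58.9 units. It stood at 18.5 units in MMP13 replicate 2, where Nfat5 was at its lowest. However, Slc6a6 was also at 20.4 units in MMP1 replicate 1, where Nfat5 was at 55.5 units. In MMP13 replicate 1 it was at only 6.62 units, with Nfat5 at 31.6 units. Slc38a2 ran the other way and was highest in the native libraries. It nevertheless lay at 134 units in MMP1 replicate 1, whose Nfat5 level of 55.5 units was within the native range. No correlation is given for Slc6a6 and Slc38a2, since both were chosen with Nfat5.

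For the other 2 members, the correlation with Nfat5 over 6 libraries was computed on the log2 scale. Akr1b1 had a Pearson r of -0.60 (exact permutation p = 0.23, two-sided, adjusted p = 0.45 over 2 relations) and a Spearman rho of -0.60 (exact permutation p = 0.24, adjusted p = 0.48). Without the 2 libraries farthest from the median of Nfat5, MMP13 replicate 2 and MMP1 replicate 2, r was -0.51. Slc5a3 had an r of 0.33 (exact permutation p = 0.52, adjusted p = 0.52) and a rho of 0.086 (exact permutation p = 0.92, adjusted p = 0.92), with an r of 0.021 without those libraries. Neither relation passed, and the libraries are 3 groups of 2 and not 6 draws from 1 condition.

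**Figure D3:**
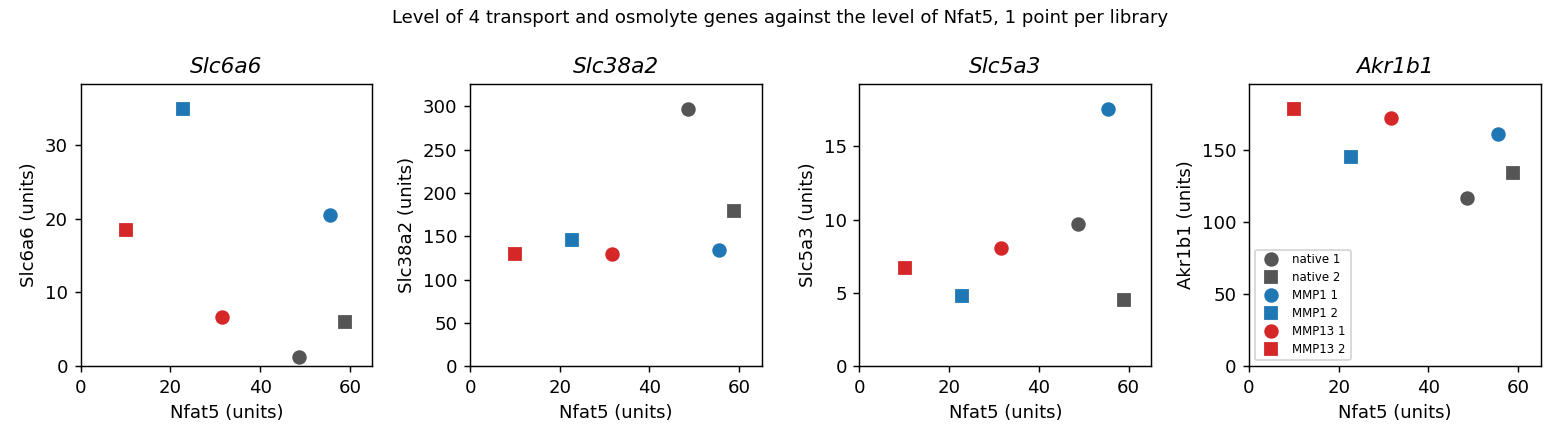
Level of 4 transport and osmolyte genes against the level of Nfat5, 1 point per library, both in size-factor-normalised reads (grey native, blue MMP1, red MMP13, circles replicate 1, squares replicate 2). Slc6a6 and Akr1b1 are highest away from the native libraries, Slc38a2 is highest in native replicate 1, and Slc5a3 shows no order, with an r of 0.33.

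A wider list of 19 NFAT5 target and osmolyte genes had 11 tested genes. Outside Slc6a6 and Slc38a2, 9 were tested and 0 passed in either comparison with native matrix by limma. EdgeR tested 5 of them and called 0, and DESeq2 called 0, but on MMP13 matrix gave an adjusted p to only 3 of them, as to only 858 of all tested genes. At an unadjusted p under 0.05 there were 0 on MMP1 matrix, against 8.24% of all tested genes, and 3 on MMP13 matrix, against 8.05%, which were Akr1b1, Vegfc and Hspa4l. Aqp1, Hspa4l and Vegfc reached the filter only in libraries from remodelled matrices, Aqp1 on MMP1 and the others on MMP13 matrix, so a higher value there was built in, and nothing is read from these counts or from the counts and medians that follow. Of the 9 log2 folds, 8 were above 0 on MMP1 matrix and 7 on MMP13 matrix, where 51.1% and 50.5% of all tested genes were. Those of S100a4 and Ccl2 lay between -0.15 and 0.06. Each but that of Ccl2 on MMP13 matrix turned sign with another tool or scaling, and that one turned with a library left out. The median log2 fold of the 9 was 0.43 and 0.48, against 0.016 and 0.0088 for all tested genes. With Hspa4l, which had 0 reads on native matrix, set against the mean of 3 reads per native library (2.96 units), the medians were 0.34 and 0.48.

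Among these genes, Hspa4l encodes an osmotic-stress-inducible chaperone of the HSP110 family. It had 0 reads in both native libraries, 1 and 3 on MMP1 and 8 and 4 on MMP13 matrix. Vegfc, a lymphatic growth factor gene, had 0 and 1, 0 and 4, and 8 and 8 reads in the same order. Both passed the filter only through the MMP13 libraries, so reads there were built in, and nothing is read from the contrast with native matrix. At these counts single reads matter. Acan, encoding the proteoglycan aggrecan, lay at 17.0 and 12.1 units on native matrix, 30.7 and 22.8 on MMP1 and 21.3 and 28.5 on MMP13 matrix, with log2 folds of 0.84 and 0.74 (adjusted p = 0.66 and 0.74). The water channel gene Aqp1 had between 2 and 5 reads per library. The salt-responsive kinase gene Sgk1 had a log2 fold of -0.51 on MMP1 and 0.06 on MMP13 matrix (adjusted p = 0.71 and 0.98).

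S100a4, a calcium-binding protein gene abundant in fibroblasts, lay between 915 and 1113 units in all libraries. Its log2 fold had a 95% interval of -0.15 to 0.26 on MMP1 and -0.22 to 0.19 on MMP13 matrix. The chemokine gene Ccl2 lay between 174 and 383 units, both ends being native libraries. Several other genes of this target list were scarcely read. The betaine transporter gene Slc6a12 and the collecting duct water channel gene Aqp2 had 0 reads, and the inducible HSP70 genes Hspa1a and Hspa1b had at most 1 and 2 reads in a library. Tnf, Nos2 and the urea transporter gene Slc14a2 had at most 4.

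**Figure D4:**
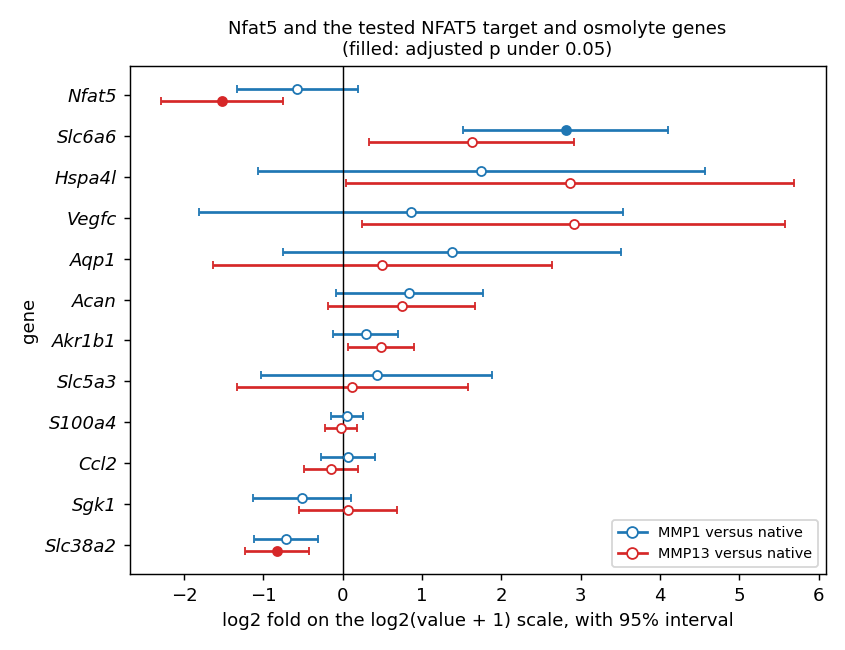
Log2 fold with its 95% interval for Nfat5 and the 11 tested target genes, on MMP1 (blue) and MMP13 (red) against native matrix. Intervals take their error from the trend over genes, and filled points have a limma adjusted p under 0.05. Filled points are those of Slc6a6, Nfat5 and Slc38a2, the genes chosen for them, and the points of Hspa4l rest on 0 native reads and are no bound.

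Genes that act on NFAT5 or belong to its family were read next. Of 16 tested genes of this list, 0 passed on MMP1 matrix by limma or DESeq2, and 0 of the 12 tested by edgeR (4 at an unadjusted p under 0.05 by limma, against 8.24% of all tested genes). On MMP13 matrix 1 passed, Nfat5 itself, against 0.412%. Nfat5 was chosen for that call, so nothing is read from this count. Importin beta 1, Kpnb1, the nuclear import receptor, had a log2 fold of -0.50 on MMP1 and -0.58 on MMP13 matrix (adjusted p = 0.48 and 0.36). The p38 kinase gene Mapk14 had one of 1.22 on MMP13 matrix (adjusted p = 0.55). On MMP1 matrix the helicase gene Dhx9 had one of 1.05 and the Src-family kinase gene Fyn one of -1.31 (adjusted p = 0.35 and 0.46). Over the list the log2 folds had a median of -0.30 on MMP1 and -0.33 on MMP13 matrix. Over all tested genes the medians were 0.016 and 0.0088, and the list includes Nfat5, which was chosen for being lower. Of the calcineurin-regulated relatives, Nfatc1, Nfatc3 and Nfatc4 were tested, at 0 to 20.7 units, and Nfatc2 had at most 5 reads in a library.

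In the list of cell volume and ion transport genes, 0 of 16 tested genes passed in either comparison by limma, with 1 at an unadjusted p under 0.05 in each, against 8.24% and 8.05% of all tested genes. EdgeR called 0 of 15, and DESeq2 called 0, with an adjusted p for only 2 on MMP13 matrix. Wnk1, the chloride-sensing kinase of volume control, lay at 85.1 and 73.2 units on native matrix, 48.2 and 45.6 on MMP1 and 50.0 and 58.8 on MMP13 matrix. Its log2 folds were -0.74 and -0.53 (adjusted p = 0.44 and 0.68). Lrrc8c, a subunit of the volume-regulated anion channel through which taurine leaves swollen cells, had 7 and 12 reads on native, 10 and 11 on MMP1 and 2 and 2 on MMP13 matrix (log2 fold -1.58 on the last, adjusted p = 0.61). Of the taurine synthesis and transport list, Csad, which makes taurine from cysteine products, was tested beside Slc6a6, with log2 folds of 0.60 and 0.51 (adjusted p = 0.88 and 0.92).

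The polyol, inositol and choline list had 8 tested genes. None passed on MMP1 matrix by limma or DESeq2, or among the 7 tested by edgeR (1 at an unadjusted p under 0.05 by limma, against 8.24% of all tested genes). On MMP13 matrix 1 passed, against 0.412% of all tested genes, Akr1b8, an aldo-keto reductase gene next to Akr1b1 in GRCr8. Akr1b8 lay at 213 and 266 units on native matrix, 232 and 266 on MMP1 and 449 and 311 on MMP13 matrix. Both MMP13 libraries were above both native libraries, as in 18.9% of tested genes, and above both MMP1 libraries, as in 15.9%. The log2 fold against native was 0.65 (SE 0.17, limma adjusted p = 0.034). That call held by edgeR and DESeq2 and was lost in 11 of 17 alternatives, with a log2 fold of 0.38 without MMP13 replicate 1, and the 0.07 on MMP1 matrix turned sign when a library was left out. Akr1b8 is also held by the list of targets of the oxidative stress factor NRF2, drawn up with earlier results of these data known. Of its 12 tested genes 5 passed as higher on MMP13 matrix, Akr1b8 among them, against 0.275% of all tested genes. The haem oxygenase gene Hmox1 led the 5, with log2 folds of 1.15 and 2.42. The part of NRF2 in the Akr1b8 values was not tested. Impa2, an inositol monophosphatase gene that reached the filter only on remodelled matrices, had 2 and 6 reads on native, 11 and 7 on MMP1 and 10 and 12 on MMP13 matrix, with log2 folds of 1.54 and 1.61 (adjusted p = 0.55 and 0.52).

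Slc38a2, on MMP13 matrix, was the 1 gene of 12 tested amino acid transporters to pass, against 0.412% of all tested genes. Slc38a2 was chosen for that call, so nothing is read from this count. On MMP1 matrix 0 passed by limma or DESeq2, and 0 of the 8 tested by edgeR (3 at an unadjusted p under 0.05 by limma, against 8.24%). Its sister gene Slc38a4, which reached the filter only on MMP13 matrix, had 1 or 2 reads in each native library and 12 and 4 on MMP13 matrix (log2 fold 1.83, adjusted p = 0.67). Slc7a6, a cationic amino acid exchanger gene, had 12 and 19 reads on native and 4 and 3 on MMP1 matrix (log2 fold -1.46, adjusted p = 0.47), and Slc43a2 had a log2 fold of -2.05 there (adjusted p = 0.57). On MMP1 matrix 8 of the 12 log2 folds were below 0, with a median of -0.31, and on MMP13 matrix 6 were, with a median of 0.01. Over all tested genes 51.1% and 50.5% were above 0, with medians of 0.016 and 0.0088. The 12 include the chosen Slc38a2.

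Among 18 tested genes of the ATF4 and amino acid response list, Slc38a2 on MMP13 matrix was likewise the single call, against 0.412% of all tested genes. Since that call chose Slc38a2, nothing is read from this count either. On MMP1 matrix 0 of the 18 passed by limma, edgeR or DESeq2 (5 at an unadjusted p under 0.05 by limma, against 8.24% of all tested genes). Atf4 lay at 159 and 188 units on native matrix, 247 and 274 on MMP1 and 305 and 227 on MMP13 matrix, with log2 folds of 0.58 and 0.60 (adjusted p = 0.16 and 0.12). All 4 remodelled libraries of Atf4 were above both native ones, as in 8.91% of tested genes. Slc38a2, chosen for a lower level on MMP13 matrix, had all 4 below, as in 8.7%. Ddit4, a stress-induced inhibitor of the growth kinase mTORC1, had log2 folds of 0.85 and 1.39 (adjusted p = 0.49 and 0.058), and passed on MMP13 matrix with the stricter filter (0.036). The 18 log2 folds had a median of 0.21 on MMP1 and -0.10 on MMP13 matrix, against 0.016 and 0.0088 for all tested genes. The chosen Slc38a2 is among these 18.

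By a fixed rule, the 3 genes with the highest Pearson r over the 6 libraries were found for each chosen member among 3642 tested genes at or above the median level of 13.3 units. For Nfat5 they were Asl, Naa20 and Pttg1 (r = 0.993, 0.973 and 0.968). Asl encodes a urea cycle enzyme and ran from 20.2 to 33.6 units, and Pttg1 encodes the mitotic regulator securin and ran from 23.5 to 65.7 units. For Slc6a6 they were Nfkbie, Gtf3c2 and Arl1 (r = 0.980, 0.972 and 0.969), and for Slc38a2 Eif4g2, Mettl7a and Nap1l4 (r = 0.986, 0.985 and 0.969). None of these 9 genes is on the NFAT5 target list. Each r is among the highest of 3642 over only 6 libraries that share depth and group, and serves as a description.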

How the data were processed

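One deposited table holds 1 column for each of the 6 libraries. The deposited values are a signal scaled by the authors: read counts per gene over a size factor, as the values themselves show, since 100% of them came out as whole reads within 0.01 reads once each library's step was divided out. The submitters' processing notes name TopHat, bcl2fastq and DESeq, with no versions, and the build rn5. The sources used here do not give the counter, annotation or strand use, nor whether molecular identifiers were collapsed, so intervals and floors cover counting error only.

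Groups came from the sample titles. limma 3.58.1 in R 4.3.3 (eBayes with intensity trend) was fitted to log2(value + 1) of all 6 libraries without a replicate block, with Benjamini-Hochberg adjustment over 7284 genes and a threshold of 0.05. The design had a branch for counts and one for normalized values, and the second was followed. The prior degrees of freedom were infinite. Recovered reads were tested with edgeR 4.0.16 (4574 genes) and DESeq2 1.42.0. The fit was tested on simulated data. All 5 members, and 97.6% of symbols in the table, matched RefSeq (GRCr8), used for names, neighbours and promoter sequences. The genes named from a list were those past the threshold and, otherwise, taken from the 3 with the smallest p against native matrix in each comparison; all tested targets could be named. The members and lists were chosen with earlier results of these data known. Piezo1, Pnpla6, Slc38a10 and the tenocyte marker Mkx were not analysed here.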

Additional observations from a re-analysis of the deposited data

How the results depend on the processing

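The number of members called on MMP1-treated matrix was 1, and it was 0 with the stricter filter, without the trend and by DESeq2, and 0 to 2 with a library left out. On MMP13-treated matrix it was 2. It was 1 with a pseudocount of 0.5, with quantile scaling, by edgeR and by DESeq2, 0 with no filter and without the trend, and 0 to 2 with a library left out. With a replicate block it was 1, as the adjusted p of Nfat5 became 0.051, and the block changed no other call of a member. Same-numbered libraries deviated with r of -0.072 to 0.0059 over the tested genes. Counting error draws such an r toward 0, so it cannot decide whether same-numbered libraries shared a culture or day. Between MMP13 and MMP1 the count was 0 in all 17 alternatives. Over all tested genes the 11, 30 and 3 calls became 0 to 14, 0 to 32 and 0 to 26, the 0 in each without the trend and the 26 without MMP13 replicate 1.

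Of 840 recomputed log2 folds of the genes named, 785 kept direction and side of the threshold, 33 lost a call, 2 gained one and 20 turned sign, none of the last from a call. The signs that turned with all libraries were of S100a4 (-0.021 with quantile scaling on MMP1-treated matrix, 0.0021 by edgeR on MMP13-treated) and Ccl2 (-6.6e-04 by edgeR and -0.038 by DESeq2 on MMP1-treated). With a library left out, ranges that cross 0 on MMP1-treated matrix were -1.19 to 0.052 for Nfat5, -0.41 to 1.27 for Slc5a3, -0.41 to 2.13 for Vegfc, -0.016 to 0.12 for S100a4, -0.50 to 0.63 for Ccl2 and -0.094 to 0.22 for Akr1b8. On MMP13-treated matrix they were -0.36 to 0.60 for Slc5a3, -0.35 to 0.48 for Sgk1, -0.16 to 0.12 for S100a4 and -0.72 to 0.41 for Ccl2, and between MMP13 and MMP1 -1.15 to 0.53 for Slc5a3. The cause was not tested. Slc5a3 is absent from fits with the stricter filter and from edgeR, which dropped it, and on MMP13-treated matrix DESeq2 gave no adjusted p to Nfat5, Slc6a6 and Slc5a3, so that its count there is out of 2 members. Where a library is left out, the lone library of its group is assumed to vary like the other groups.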
